A study of Mus musculus with 8 samples.

Results

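*Dnmt1*, *Dnmt3a*, *Dnmt3b*, *Dnmt3l*, *Uhrf1*, *Tet1*, *Tet2*, *Tet3*, *Dppa3* and *Zfp57* are the genes that write, copy, remove or guard methylated cytosines, and their mRNA was examined here in the whole ovary of juvenile WT and GOAT KO mice. They were taken by symbol from the deposited table of read counts per gene, which held all 10 of them among 45583 symbols. All 10 passed the filter on low counts, as did 16601 genes in all. Each of the 10 was detected in every library, and none differed between the libraries labelled WT and those labelled GOAT KO by more than the spread between animals.

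Ovaries of 4 WT and 4 GOAT KO female mice on a C57/Bl6 background were collected at 3 weeks of age, 1 library per mouse, and the libraries are named here by animal number (WT 1118, 1119, 1120 and 1121, and GOAT KO 1139, 1140, 1141 and 1146). GOAT, ghrelin-O-acyltransferase, is encoded by *Mboat4* and attaches the acyl group to the stomach peptide ghrelin. The study describes the knockout as global, and per its methods both genotypes came from crosses of heterozygous parents. No group received a treatment. RNA came from the whole organ, in which oocytes, granulosa cells, theca, stroma and leukocytes are mixed, so that fewer cells of a type and less RNA per cell cannot be told apart.

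The targeted gene went against the labels. *Mboat4* had 1, 1, 1 and 3 counts in the libraries labelled WT and 5, 7, 7 and 8 counts in those labelled GOAT KO, and the groups did not overlap (exact permutation test, two-sided, p = 0.0286, the smallest p that 4 against 4 allows). These counts are few, and which part of the gene the deletion removed is not given in the sources used here. Every direction below is therefore between libraries labelled GOAT KO and libraries labelled WT.

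In mammals DNMT1 copies methylation onto the new strand after replication, guided to hemimethylated sites by UHRF1. DNMT3A and DNMT3B place methylation on unmethylated DNA, and DNMT3L, which has no catalytic activity of its own, assists them in the growing oocyte, where the maternal imprints are laid down. The TET enzymes oxidise methylcytosine as a step towards its removal, DPPA3 (also called STELLA) keeps UHRF1 in check in oocytes and shields the maternal genome after fertilisation, and ZFP57 holds imprints in place by binding their methylated sites.

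*Dnmt1* and *Uhrf1* are each read from more than one first exon in these ovaries, and the sequences before their alternative starts differ in their content of CpG, the 2-base site that DNMT1 copies. The windows below are the 250 bases before the RefSeq start (GRCm38.p6), printed 5′ to 3′ on the strand of the gene, with each CpG in capitals. For *Dnmt1* (minus strand) the windows are chr9:20952980-20953229, before the exon in use in all 8 libraries, and chr9:20959889-20960138, before the most upstream exon, which had reads in 2 libraries.
Dnmt1, exon used in all libraries: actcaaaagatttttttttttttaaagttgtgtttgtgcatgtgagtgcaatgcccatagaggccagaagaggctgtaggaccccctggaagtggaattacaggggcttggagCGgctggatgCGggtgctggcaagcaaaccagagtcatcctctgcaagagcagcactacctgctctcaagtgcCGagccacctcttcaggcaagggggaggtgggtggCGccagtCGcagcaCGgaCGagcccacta
Dnmt1, most upstream exon: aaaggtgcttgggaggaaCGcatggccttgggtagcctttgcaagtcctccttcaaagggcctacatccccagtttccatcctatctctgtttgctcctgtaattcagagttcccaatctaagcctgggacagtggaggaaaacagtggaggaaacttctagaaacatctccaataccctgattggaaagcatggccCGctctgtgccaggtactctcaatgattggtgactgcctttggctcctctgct
The first window holds 7 CpG and the second 2. A further RefSeq window of *Dnmt1*, chr9:20952624-20952873, not printed here, holds 26 and lies before a first exon with 8 reads, all in WT 1121. For *Uhrf1* (plus strand) the windows are chr17:56303087-56303336, before the exon with most reads, and chr17:56304063-56304312, before the second one.
Uhrf1, first exon with most reads: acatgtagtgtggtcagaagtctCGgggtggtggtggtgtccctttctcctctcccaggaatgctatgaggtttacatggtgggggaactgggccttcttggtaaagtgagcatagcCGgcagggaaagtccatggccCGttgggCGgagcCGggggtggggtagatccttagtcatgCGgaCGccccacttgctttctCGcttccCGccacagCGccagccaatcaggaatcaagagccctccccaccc
Uhrf1, second first exon: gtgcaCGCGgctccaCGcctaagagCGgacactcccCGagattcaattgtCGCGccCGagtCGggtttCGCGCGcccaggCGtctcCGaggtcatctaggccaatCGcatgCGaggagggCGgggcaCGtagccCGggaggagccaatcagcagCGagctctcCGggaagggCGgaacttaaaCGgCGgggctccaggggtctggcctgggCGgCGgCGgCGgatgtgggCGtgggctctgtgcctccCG
These hold 10 and 30 CpG, against a median of 6 over the 32851 windows of the same length in the RefSeq table. Windows were at hand for 9 of the 10 genes, 18 in all, with the most CpG, 51, before *Tet2*. The letters TTTCCCGC, a core of E2F sites, were searched on both strands and stood in none of the 18 windows and in 0.895% of all windows, and TAATTG, a homeobox core, in none of the 18 and in 7.17%.

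*Dppa3* has a near-identical copy elsewhere, and the sequences at its exon joins are shown because the copy bears on its values. *Dppa3* lies on chromosome 6 (chr6:122626410-122630272, plus strand, GRCm38), and *Dppa3-ps*, annotated as a transcribed processed pseudogene without introns, on chromosome X (chrX:37625647-37626097, minus strand). Over the 451 bases of the copy, 443 (98.2%) were the same as in the spliced *Dppa3* mRNA, and 135 of the 784 windows of 50 bases along that mRNA, 50 bases being the length of a read, were present letter for letter in the copy. The lines below give 25 coding bases on either side of the joins of exons 1 and 2 and of exons 2 and 3, from GENCODE transcripts, with the bases that differ in capitals.
Dppa3, exons 1 and 2: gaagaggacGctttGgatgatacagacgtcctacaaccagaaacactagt
Dppa3-ps, same stretch: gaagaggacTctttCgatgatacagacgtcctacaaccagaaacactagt
Dppa3, exons 2 and 3: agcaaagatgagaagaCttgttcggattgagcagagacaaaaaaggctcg
Dppa3-ps, same stretch: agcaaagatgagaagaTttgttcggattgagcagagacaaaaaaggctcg
The first pair differs at 2 bases and the second at 1.

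Gene counts summed to between 16147216 and 19481798 per library. In a multidimensional scaling on the 500 genes that differed most between each pair of libraries GOAT KO 1139 stood apart, at 1.21 on the first dimension with the other 7 libraries between -0.47 and 0.17, and its markers of fat tissue summed to 676 CPM (counts per 1000000 counts of the library, scaled by TMM) against 15.5 to 38.8 CPM in the others. WT 1120, at 0.17 on the first and -0.43 on the second dimension, lay apart from the other 3 WT libraries (-0.47 to -0.18 and 0.11 to 0.76). On the second dimension WT 1118, at 0.76, also lay apart from WT 1119 (0.13) and WT 1121 (0.11). The study set aside one library of each genotype, which its text does not name. Results are given for all 8 libraries and, where they differ, for the 6 libraries without WT 1120 and GOAT KO 1139, a pair chosen here from that plot. Genes of the ovary itself were plentiful in every library, such as *Gja1* and *Inha* of granulosa cells (mean in WT 3462 and 3435 CPM) and *Gdf9* of growing oocytes (305 CPM).

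*Dnmt1*, the maintenance methyltransferase, was the most abundant of the 10 (chr9:20907209-20959888, minus strand). Its level was 520.3, 455, 477 and 456 CPM in WT 1118, 1119, 1120 and 1121 and 483, 507, 486 and 451 CPM in GOAT KO 1139, 1140, 1141 and 1146. The highest library was a WT one and the lowest a GOAT KO one, and the groups overlapped over most of their range. The log2 fold change of GOAT KO over WT was 0.02 ± 0.06 (SE, n = 4 per group), with a 95% interval from -0.13 to 0.16 and an adjusted p = 0.989 (edgeR). *Uhrf1*, its guide (chr17:56303321-56323486, plus strand), had 116, 124, 145 and 123 CPM in WT, against 141, 127, 122 and 122 CPM in GOAT KO. WT 1120 and GOAT KO 1139, the libraries left out of the smaller set, were its highest in either group. Its log2 fold change was 0.01 ± 0.08 (edgeR adjusted p = 0.993). Per kilobase of exon *Dnmt1* stood 2.18-fold above *Uhrf1*, and the log2 ratio of the pair was 1.12 ± 0.18 in WT and 1.13 ± 0.10 in GOAT KO (SD, n = 4, exact permutation p = 0.914).

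**Figure D1:**
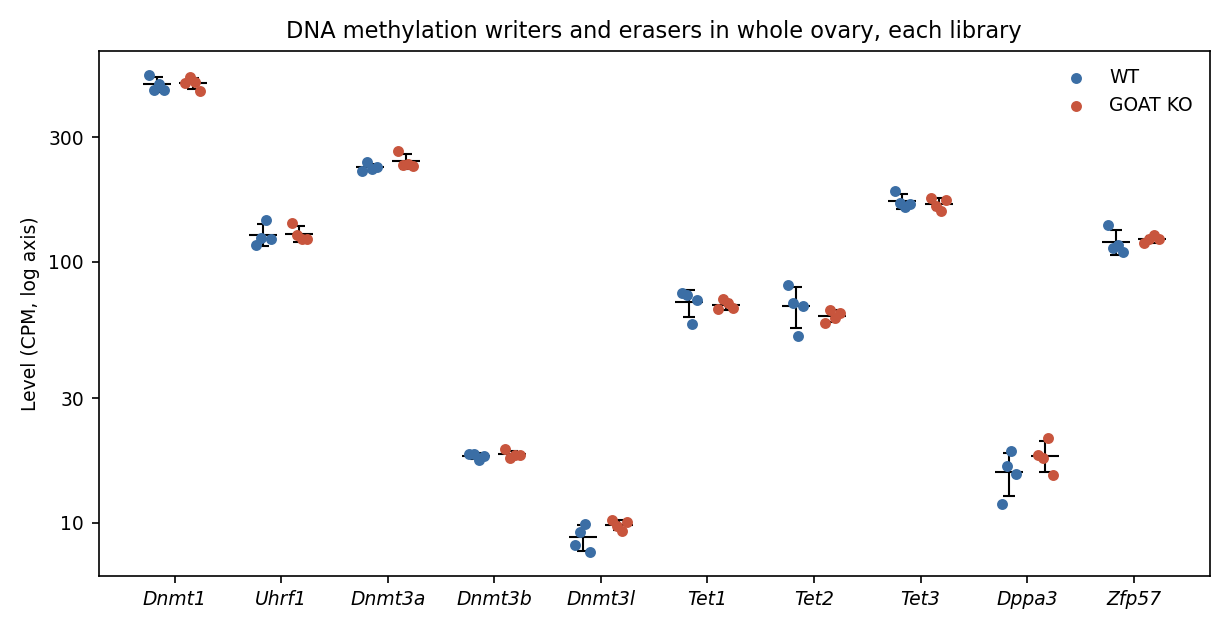
Level of the 10 genes in each of the 8 libraries, in CPM on a log axis. Points are libraries (blue WT, red GOAT KO), the short bars are group means and the error bars 1 SD (n = 4). WT and GOAT KO points overlap for every gene, from *Dnmt1* near 480 CPM to *Dnmt3l* near 9 CPM.

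Among the enzymes that place new methylation, *Dnmt3a* prevailed (chr12:3806007-3914443, plus strand). It had 222, 240.3, 226 and 230.1 CPM in WT, against 266, 234, 236 and 231 CPM in GOAT KO. GOAT KO 1139 lay above all others, and the remaining 3 GOAT KO libraries fell within the range of WT. The log2 fold change was 0.08 ± 0.06 with all 8 libraries (edgeR adjusted p = 0.983) and 0.02 ± 0.06 with 6 (adjusted p = 0.936). *Dnmt3b* (chr2:153649450-153687730, plus strand) was at 18.4, 18.3, 17.4 and 18.1 CPM in WT, against 19.15, 17.7, 18.2 and 18.1 CPM in GOAT KO. Its coefficient of variation over the 8 libraries was 2.83%, below the 5.60% that counting error alone would give at 290 to 356 counts per library. Its log2 fold change was 0.02 ± 0.07, with a 95% interval from -0.14 to 0.18.

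*Dnmt3l*, the cofactor of the growing oocyte (chr10:78041947-78063622, plus strand), was the least abundant, at 8.24, 9.22, 9.93 and 7.74 CPM in WT, against 10.2, 9.72, 9.27 and 10.1 CPM in GOAT KO. All 4 GOAT KO libraries lay above 3 of the 4 WT ones and WT 1120 lay among them. The log2 fold change of 0.16 ± 0.11 did not pass the test (edgeR adjusted p = 0.983), and at 133 to 181 counts per library the 95% interval from -0.08 to 0.40 holds both no change and a rise of 1.32-fold. *Dnmt3a* stood 3.98-fold above *Dnmt3b* and 4.56-fold above *Dnmt3l* per kilobase of exon, and the test found no difference between the groups in either ratio (exact permutation p = 0.257 and 0.343).

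*Dnmt3b* also has a close copy. *Dnmt3c*, listed as *Gm14490* in the counts (chr2:153696652-153729907, plus strand), is a methyltransferase gene of the male germ line that lies beside *Dnmt3b*, and 491 of the 4271 windows of 50 bases in the longest *Dnmt3b* mRNA occur in it letter for letter. It had 9, 6, 2 and 2 counts in WT and 5, 11, 9 and 5 counts in GOAT KO. Among spliced reads 609 lay within *Dnmt3b*, 59 within the copy, and 99 on 7 junctions that joined one gene to the other. Adding the counts of the copy left the log2 fold change of *Dnmt3b* at 0.03 ± 0.07. The processed copies *Dnmt3a-ps1* and *Dnmt3l-ps1* shared no window of 50 bases with their parent genes and had 18 to 36 and 0 counts per library.

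The 3 TET genes were all expressed, and *Tet3*, the TET enzyme known from oocytes and the zygote, prevailed (chr6:83362373-83459084, minus strand). It had 187, 168, 161 and 166 CPM in WT, against 176, 163, 156 and 172 CPM in GOAT KO, with a log2 fold change of -0.03 ± 0.06 (edgeR adjusted p = 0.986). *Tet1* (chr10:62804570-62908996, minus strand) had 75.6, 74.7, 57.8 and 71.3 CPM in WT, against 65.8, 72.1, 69.6 and 66.4 CPM in GOAT KO, and a log2 fold change of -0.03 ± 0.09 (adjusted p = 0.986). WT 1120 was the lowest library for *Tet1*, and the other 3 WT libraries reached from 71.3 to 75.6 CPM.

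*Tet2* (chr3:133463679-133545139, minus strand) was at 81.6, 69.6, 51.8 and 67.8 CPM in WT, against 58.4, 65.4, 60.8 and 63.9 CPM in GOAT KO. WT held both the highest library, 1118, and the lowest, 1120, and all GOAT KO values lay between them. The log2 fold change was -0.12 ± 0.11 with all 8 libraries (edgeR adjusted p = 0.983). Without WT 1120 and GOAT KO 1139 it was -0.21 ± 0.08 (adjusted p = 0.5001, unadjusted below 0.05), and in those 6 libraries each GOAT KO value lay below each WT value, as for 7.55% of all genes there. An unadjusted p under 0.05 was found for 9.46% of all genes in that set. Leaving out WT 1120 alone gave -0.24, also with an unadjusted p below 0.05, and leaving out WT 1118 gave -0.02. In none of these sets did *Tet2* pass the adjusted threshold. *Tet3* stood 2.26-fold above *Tet1* and 2.64-fold above *Tet2* per kilobase of exon, ratios for which the test found no difference between groups (exact permutation p = 0.943 and 0.486).

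*Dppa3* varied most between libraries, and its copy took a changing share of the reads. The gene had 11.8, 16.4, 18.9 and 15.3 CPM in WT, against 18.2, 17.7, 21.1 and 15.2 CPM in GOAT KO. WT 1118 was the lowest and GOAT KO 1141 the highest, 1.79-fold apart. The log2 fold change was 0.21 ± 0.14 (edgeR adjusted p = 0.983) with all 8 libraries and 0.31 ± 0.15 (adjusted p = 0.553) with 6, and its upper limit of 0.52 was the one limit among the 10 genes that passed 0.5.

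*Dppa3-ps* had 17.04, 8.39, 8.29 and 11.1 CPM in WT, against 10.1, 9.53, 9.88 and 9.24 CPM in GOAT KO. WT 1118, the lowest library for *Dppa3*, was the highest for the copy. The copy held 59.0% of the counts of the pair in WT 1118 and between 30.5% and 42.1% in the other 7. Summed over gene and copy, the level was 28.9, 24.8, 27.2 and 26.4 CPM in WT, against 28.3, 27.2, 31.0 and 24.5 CPM in GOAT KO. The coefficient of variation fell from 16.7% for the gene alone to 7.86% for the sum, and the log2 fold change of the sum was 0.05 ± 0.09 (95% interval from -0.14 to 0.24). With 6 libraries it was 0.05 ± 0.10. How reads that match both places were assigned is not given in the sources used here, and the part of that assignment in the *Dppa3* values was not tested.

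**Figure D2:**
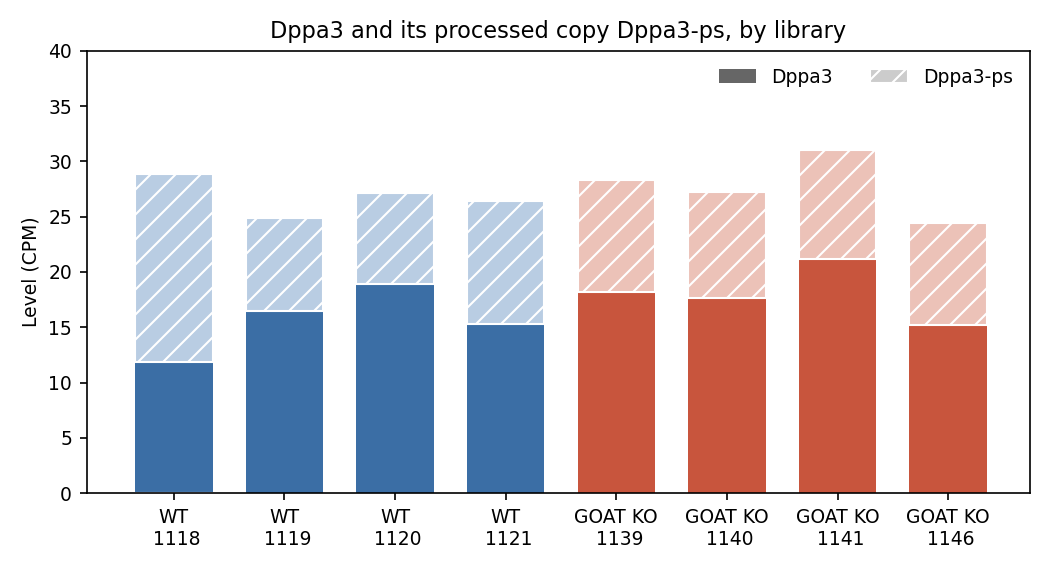
Level of *Dppa3* (solid) and of its processed copy *Dppa3-ps* (hatched, stacked on top) in each library, in CPM from 0. Blue bars are WT and red bars GOAT KO, 1 bar a library. The solid bar is lowest in WT 1118 (11.8 CPM), where the hatched one is highest (17.04 CPM), and the whole bars lie between 24.5 and 31.0 CPM.

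Spliced reads of *Dppa3* were few and unevenly spread. Reads across the join of exons 1 and 2, printed above, numbered 31, 30, 35 and 0 in WT and 0, 0, 4 and 0 in GOAT KO, and the joins of exons 2 and 3 and of exons 3 and 4 were listed in no library. WT 1121 and GOAT KO 1139 and 1140 had no spliced *Dppa3* read at all beside 281, 304 and 289 gene counts. The groups overlapped at 0 and the difference did not pass the test (exact permutation p = 0.143). *Dnmt3l*, at 133 to 181 gene counts per library, had spliced reads in all 8 libraries (43 to 67). So did *Dnmt3b* at 290 to 356 counts (59 to 92) and *Zfp57*, whose counts are higher (230 to 377). The cause of the missing spliced reads of *Dppa3* was not tested.

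*Zfp57*, the zinc finger protein that guards imprints (chr17:37001163-37010635, plus strand), had 138, 112, 116 and 109 CPM in WT, against 118, 122, 127 and 122 CPM in GOAT KO. WT 1118 was the highest library, and the other 3 WT libraries lay below all GOAT KO ones. Between the groups the log2 fold change was 0.04 ± 0.07 (edgeR adjusted p = 0.984), and without WT 1118 it was 0.12 with an unadjusted p below 0.05. WT 1118 was the highest library for 5 of the 10 genes and the lowest for 3.

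Of the whole set, 0 of the 10 genes passed the study's limits for a called gene (an unadjusted p below 0.05 and a log2 fold change beyond 0.5 in either direction), against 278 of the 16601 genes tested (1.67%). None of the 10 reached an unadjusted p under 0.05 in edgeR or in DESeq2, against 4.62% of all genes in edgeR. The WT and GOAT KO ranges overlapped for all 10, while 2.92% of all genes had groups that did not overlap. The median log2 fold change was 0.02 with 7 positive and 3 negative values, against 0.00 over all genes tested, and the median size was 0.04 against 0.08. For 9 of the 10 the 95% interval lay wholly within 0.5 of 0 on the log2 scale, as for 71% of all genes, and *Dppa3* was the exception. A difference smaller than these intervals was not detectable with 4 animals per group.

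**Figure D3:**
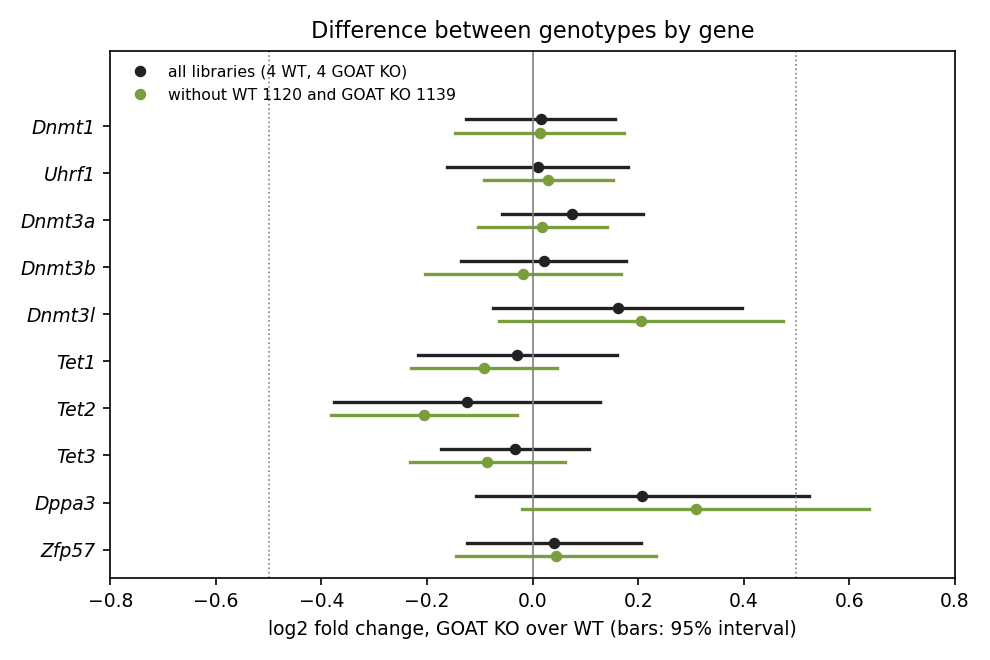
Log2 fold change of GOAT KO over WT with its 95% interval (edgeR), for all 8 libraries (black) and for the 6 without WT 1120 and GOAT KO 1139 (green). The solid line marks 0 and the dotted lines the call limit of 0.5. The black intervals all span 0, and the green interval of *Tet2*, from -0.38 to -0.03, lies below it.

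Compared per kilobase of annotated exon, a scale that allows for gene length, the genes were ordered as follows. *Dnmt1* led at 65.0 ± 3.42 CPM per kb (SD, n = 8), followed by *Zfp57* at 31.8 ± 2.39 and *Uhrf1* at 29.9 ± 2.36. *Dppa3* at 18.9 ± 3.15 and *Dnmt3a* at 14.2 ± 0.818 came next, then *Tet3* at 10.1 ± 0.575. The value of *Dppa3* leaves out *Dppa3-ps*, which held 30.5% to 59.0% of the counts of the pair, so its place is a lower bound if those reads belong to it. *Tet1* at 4.47 ± 0.375, *Tet2* at 3.85 ± 0.521, *Dnmt3b* at 3.56 ± 0.101 and *Dnmt3l* at 3.12 ± 0.301 closed the order. The library ranges overlapped between *Zfp57* and *Uhrf1*, between *Dppa3* and *Dnmt3a* and between neighbours among the last 4, so that these neighbours lay within each other's spread. With the longest transcript as length *Dnmt3a* stood above *Dppa3*, at 24.3 against 20.2 CPM per kb, and the last 4 changed places. For none of 8 ratios between related genes did the groups differ by the test (exact permutation test, smallest p = 0.229, adjusted over the 8 pairs 0.686).

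**Figure D4:**
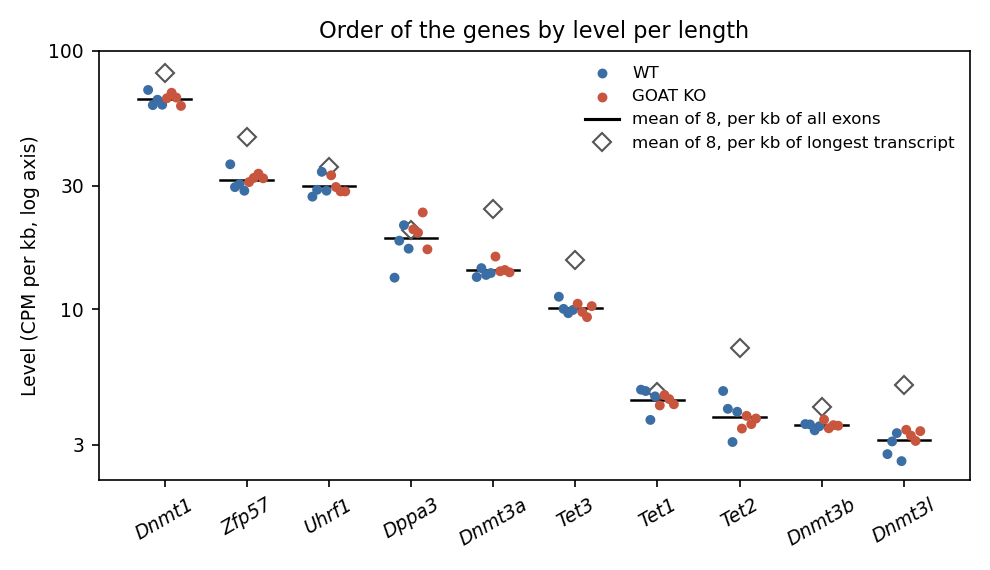
Level per kilobase of annotated exon in each library (points, blue WT, red GOAT KO) with the mean of 8 libraries (line), on a log axis. Open diamonds give the mean per kilobase of the longest transcript. *Dppa3* is shown without the counts of *Dppa3-ps*. The step from *Dnmt1* (65.0 CPM per kb) to the next gene, and the one from *Tet3* (10.1) to *Tet1* (4.47), exceed the spread between libraries.

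Because the organ holds many cell types, the 10 levels were set against summed markers of growing oocytes (16 genes), dividing cells (18) and granulosa cells (12), 30 relations over the 8 libraries. *Dnmt1* rose with the growing oocyte markers, which summed to between 1338 and 1652 CPM (Pearson r = 0.941, exact permutation p = 0.00109, adjusted p = 0.0327, Spearman rho = 0.881, p = 0.00724, adjusted 0.0543). Without WT 1118 and WT 1121, the farthest from the median of the markers, r was 0.888, and it was 0.997 within WT and 0.844 within GOAT KO. *Zfp57* followed the same markers (r = 0.884, permutation p = 0.00280, adjusted p = 0.0329, rho = 0.929, p = 0.00223, adjusted 0.0456, r without the 2 libraries 0.712, within WT 0.982 and within GOAT KO 0.542). *Tet2* fell as granulosa markers rose (r = -0.860, permutation p = 0.00439, adjusted p = 0.0329, rho = -0.905, p = 0.00456, adjusted 0.0456, r without the 2 libraries -0.697, within WT -0.900 and within GOAT KO -0.938). Markers and genes share each library's scaling, and the relations depended on single libraries. None of the 30 passed the adjusted threshold without GOAT KO 1139, GOAT KO 1140, WT 1118, WT 1119 or WT 1121, while 2 did without GOAT KO 1141, 3 without GOAT KO 1146 and 4 without WT 1120.

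*Dppa3* alone correlated with granulosa markers (r = 0.896, permutation p = 0.00367, adjusted p = 0.0329, rho = 0.786, p = 0.0279, adjusted 0.120, r without the 2 libraries 0.617). With the counts of its copy added the correlation was near 0 (r = 0.02, permutation p = 0.966, rho = 0.238). The sum instead ran with the growing oocyte markers (r = 0.797, permutation p = 0.0182, adjusted p = 0.133, rho = 0.857, p = 0.0107, adjusted 0.0643, r without the 2 libraries 0.892), which did not pass the adjusted threshold. *Uhrf1* and proliferation markers had r = 0.751 (permutation p = 0.0353, adjusted p = 0.151) and rho = 0.905 (p = 0.00456, adjusted 0.0456), with r of 0.689 without the 2 farthest libraries.

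**Figure D5:**
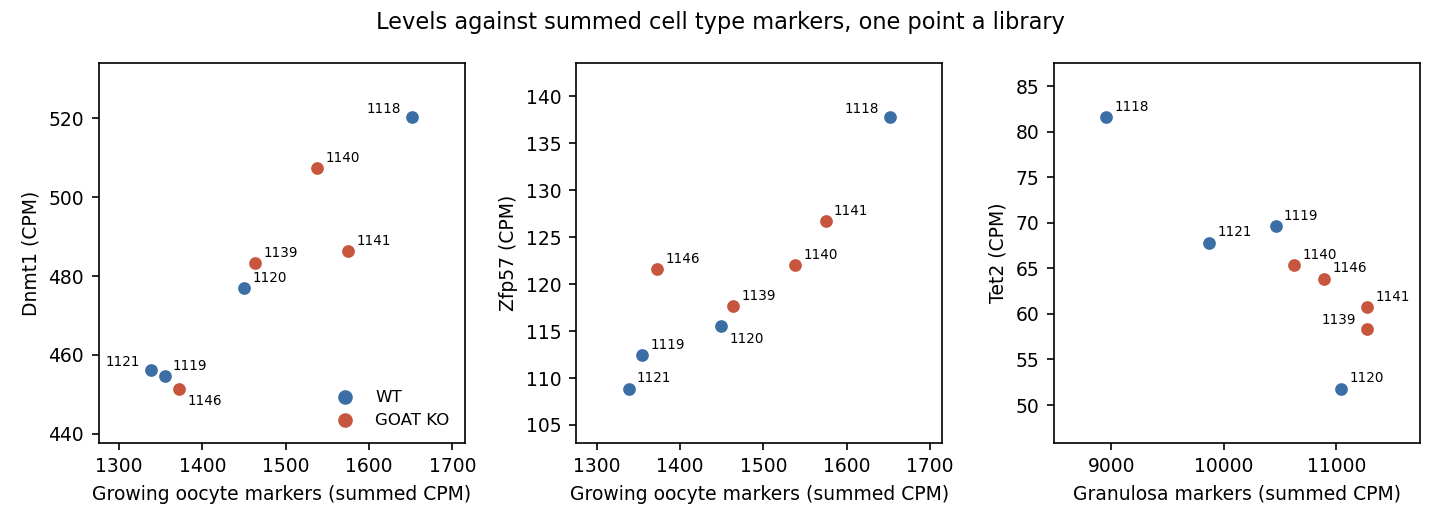
*Dnmt1* and *Zfp57* against summed growing oocyte markers and *Tet2* against summed granulosa markers, 1 point a library with its animal number, both axes in CPM and not starting at 0. Blue is WT and red GOAT KO. *Dnmt1* and *Zfp57* rise from WT 1121 to WT 1118 along the markers, and *Tet2* falls from 81.6 CPM in WT 1118 to values near 60 CPM where granulosa markers are highest.

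No marker sum passed the test between the groups. Growing oocyte markers were at 1449 ± 144 CPM in WT, against 1487 ± 89.5 CPM in GOAT KO (SD, n = 4, exact permutation p = 0.629), proliferation markers at 2799 ± 125 and 2835 ± 93.0 CPM (p = 0.686), and granulosa markers at 10079 ± 891 and 11014 ± 318 CPM (p = 0.0857). Leukocyte markers, 10 genes, summed to 90.8 to 117 CPM in WT, against 70.1 to 92.8 CPM in GOAT KO (exact permutation p = 0.0571), with *Cd3e* at 0 in some libraries. Markers of oocytes in small follicles (exact permutation p = 1.00), of theca and stroma (0.0857), of oviduct and surface epithelium (0.771) and of fat tissue (0.171, *Lep* at 0 in some libraries) did not pass the test either. Their part in the levels of the 10 genes was not tested beyond the relations above.

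Around the 10 genes, 96 other genes of methylation were tested, in 7 lists. Of these, 8 had an unadjusted p under 0.05 (7 higher and 1 lower in GOAT KO), where 4.62% of all genes did, 2 were called, both higher (background 0.958% higher), and none passed the adjusted threshold in edgeR, which 0.0241% of all genes did. DESeq2 also called 2 (background 1.12%), with 8 at an unadjusted p under 0.05. The number at that p was not stable. With 6 libraries it was 13 (8 higher and 5 lower, against 9.46% of all genes), without WT 1120 also 13 (7 higher and 6 lower), without WT 1119 it was 3 and without GOAT KO 1141 it was 1. The median log2 fold change was 0.01, against 0.00 over all genes tested.

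Proteins that protect imprints and the oocyte's stored maternal products held 4 of these 8, out of 16 tested (4.62% of all genes), all higher. *Khdc3*, a component of the subcortical maternal complex, was at 1.36, 2.11, 2.69 and 2.18 CPM in WT, against 3.11, 2.81, 2.97 and 3.37 CPM in GOAT KO. Its groups did not overlap (2.92% of all genes), and the log2 fold change was 0.55 ± 0.20 (edgeR adjusted p = 0.983). *Nlrp5*, *Nlrp14* and *Padi6*, also proteins of the oocyte, had log2 fold changes of 0.19, 0.16 and 0.17 (adjusted p = 0.983 for each), below the call limit of 0.5. The list's median was 0.04. With 6 libraries 6 of the 16 were below 0.05 (5 higher and 1 lower), against 9.46% of all genes in that set. The lower one was the chromatin remodeller gene *Atrx* (-0.17), and *Nlrp5* was no longer among the 6.

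In the list of partners of de novo methylation 1 of 9 tested genes was called (1.67% of all genes). *Mov10l1*, a helicase of the piRNA pathway, was at 1.30, 1.72, 1.81 and 3.27 CPM in WT, against 2.21, 4.09, 4.81 and 2.44 CPM in GOAT KO (log2 fold change 0.74 ± 0.32, edgeR adjusted p = 0.983), with groups that overlapped. Of 14 listed germline genes that methylation silences in other cells, 10 passed the filter on low counts. These had 8 of 10 positive values and a median of 0.21. Among the 10, 1 had an unadjusted p below 0.05 (4.62% of all genes), *Mael* (0.37 ± 0.16, edgeR adjusted p = 0.983). With 6 libraries *Mael* was at 0.38 ± 0.18, no longer below 0.05. *Slc25a31* followed at 0.28 ± 0.13, its unadjusted p just above 0.05. Both are genes of germ cells.

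Of the removal and repair list, 1 of 22 tested genes had an unadjusted p under 0.05, a share near the 4.62% of all genes. *Gadd45a*, a stress-induced gene linked to demethylation, had 62.3, 60.2, 44.2 and 53.8 CPM in WT, against 34.3, 52.7, 41.2 and 45.6 CPM in GOAT KO, a log2 fold change of -0.34 ± 0.14 (edgeR adjusted p = 0.983) that the call limit of 0.5 left out. *Neil2*, a DNA glycosylase, was at 0.27 ± 0.12, its unadjusted p just above 0.05, and at 0.37 ± 0.14 with 6 libraries, where it lay below 0.05. In that set 5 of the 22 were below 0.05, against 9.46% of all genes there. Of these 5, *Gadd45a* (-0.34 ± 0.10), *Cxxc5* (-0.27 ± 0.09), *Cul4b* (-0.14 ± 0.06) and *Ogt* (-0.13 ± 0.06) were lower. Of the methyl donor list, *Mtap*, of methionine salvage, was at -0.10 ± 0.05. None of 12 maintenance partners and none of 12 methyl-CpG readers had an unadjusted p below 0.05 in edgeR, and the smallest p there were those of *Hdac1* (-0.19 ± 0.12) and *Dmap1* (0.12 ± 0.09), and of *Zbtb38* (-0.14 ± 0.08) and *Mbd6* (-0.14 ± 0.09).

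Spliced reads over the introns of the 10 genes gave a readout that does not rest on the gene counts alone. They numbered 24009 for *Dnmt1* over all libraries, 3673 for *Dnmt3a*, 2224 for *Zfp57*, 1552 for *Uhrf1*, 989 for *Tet3*, 609 for *Dnmt3b*, 423 for *Dnmt3l*, 259 for *Tet1*, 183 for *Tet2* and 103 for *Dppa3*. Scaled to the 2586686 to 3239382 spliced reads of each library, none of the 10 passed the test between the groups (exact permutation test, p between 0.143 and 0.971, smallest adjusted p = 0.952).

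For *Dnmt1*, the intron after the exon that follows the first printed window had 24, 27, 39 and 35 reads in WT and 23, 31, 30 and 29 reads in GOAT KO. The intron after the most upstream exon had 4, 0, 13 and 0 reads in WT and none in GOAT KO, and a further first exon had 8 reads, all in WT 1121. Oocytes are known to read *Dnmt1* from a first exon of their own, and which of these exons that is was not assigned here. The share of the first named intron was 85.5% ± 10.6 in WT and 100% in GOAT KO (SD, n = 4, exact permutation p = 0.143). At another *Dnmt1* intron, where the splice site moves by 3 bases, the more used site took 59.1% ± 7.15 of 269 reads in WT and 50.5% ± 5.39 of 270 reads in GOAT KO (exact permutation p = 0.0571, adjusted p = 0.971), with shares of 48.5% to 63.6% in WT and of 47.4% to 58.5% in GOAT KO.

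*Uhrf1* used the first exon behind the window of 10 CpG for 224 reads and the one behind the window of 30 CpG for 19. Per library the latter had 3, 0, 3 and 5 reads in WT and 3, 3, 2 and 0 reads in GOAT KO. *Dnmt3b* skipped a pair of exons near its end in 28 reads and kept the last of them in 21. *Zfp57* had a second splice site 9 bases away from the main one, with 0, 0, 31 and 34 reads in WT and 0, 18, 32 and 27 reads in GOAT KO beside 48 to 63 at the main site. This all-or-none pattern did not follow genotype. Over 17 sites with a choice and reads in both groups, none had p under 0.05 by the exact permutation test.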

How the data were processed

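The authors sequenced whole ovary RNA as single reads of 50 bases. Cleaned reads were mapped with TopHat 2.0.14 to the build mm10 (GRCm38). The deposited values are whole-number counts of reads per gene symbol, without normalization, and counts of reads across each splice junction, 1 set per library. The authors also deposited the mapped share of each library in percent (85.9% to 87.0% mapped to the genome). The counting tool, its treatment of the strand and of reads with several matches are not given in the sources used here. The StringTie 1.0.4 assembly was not analysed here. Both tools are also named in the submitters' processing notes.

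The test across genes was that of edgeR 4.0.16 under R 4.3.3 (TMM scaling, filterByExpr with a minimum of 10 counts and 15 in all, quasi-likelihood test over all genes, Benjamini-Hochberg adjustment), and the test was checked on simulated counts. DESeq2 1.42.0, RLE size factors, no filter on low counts and sets without single libraries were alternatives. For a single value the exact permutation test over libraries was used, two-sided, and for correlations the exact permutation of the pairings of log2 CPM. Levels per length used GENCODE M21 exons. Genes on the opposite strand overlap *Dnmt3a* (*Dnmt3aos*), *Dnmt3b* (*Dnmt3bos*), *Dnmt3l* (*Aire*), *Tet2* (*Gm42567*) and *Tet3* (*B230319C09Rik*), and without strand their reads cannot be told apart. A splice site was tested with at least 10 reads and a second partner of at least 5%. No pair of libraries within a group agreed within sampling noise (chi-square per gene 3.96 or more). Each library is 1 mouse.

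The 10 genes and all lists were chosen with earlier results of these data known. Genes named are the 10, the called genes of each pathway list or otherwise the 2 with the smallest p, marker genes at 0 or with most reads, the 3 genes most like each of the 10, and *Mboat4*. *Nlrp5*, *Nlrp14*, *Padi6*, *Sohlh1*, *Plin1*, *Gnmt*, *Cxxc5*, *Cul4b*, *Ogt* and *Atrx* were named after their values were seen. Adding copies to their parent genes was chosen after seeing the data. A result of the methyl donor list is not reported here.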

Additional observations from a re-analysis of the deposited data

Results flagged for a closer look

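Within 60 groups of 4 libraries, 6 held a library that stood far from the other 3, and chance gives about 1 in 20. *Dnmt3a* was at 266 CPM in GOAT KO 1139 and at 231 to 236 CPM in the other GOAT KO libraries. In the same library markers of fat tissue summed to 676 CPM (others 22.3 to 38.8), markers of oocytes in small follicles to 219.9 CPM (279 to 290.4) and markers of oviduct and surface epithelium to 192 CPM (159 to 162). In WT 1118 *Dmap1*, a partner of DNMT1, was at 33.4 CPM (others 41.2 to 42.6) and the methyl-CpG reader *Mbd6* at 153 CPM (116 to 121).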

How the results depend on the processing

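Under 14 alternatives the number of the 10 genes called stayed at 0, and of their 140 log2 fold changes 135 kept their side of the unadjusted threshold. The other 5 gained it: *Tet2* with 6 libraries (-0.21, also with copies added) and without WT 1120 (-0.24), *Dppa3* without WT 1120 (0.31) and *Zfp57* without WT 1118 (0.12). No paired analysis was possible because the groups share no replicate numbers, the labels carrying different animal numbers in each. Without single libraries 231 to 437 genes were called (437 without WT 1120) and 3 to 14 passed the adjusted threshold (14 without GOAT KO 1139). With no filter 691 genes were called and 7 passed. With 6 libraries 20 passed, copies added or not, and with DESeq2 12. Pathway genes called numbered 1 to 4 without single libraries. They included *Gnmt*, a methyltransferase that uses S-adenosylmethionine. It did not pass the filter with all 8 libraries (7, 6, 7 and 9 counts in WT, 16, 12, 13 and 9 in GOAT KO). *Gnmt* was called with no filter and without GOAT KO 1146 or any single WT library (without WT 1118 it was the one gene called). All WT values, 0.33 to 0.49 CPM, and GOAT KO 1146 at 0.52 CPM lay below the filter level of 0.566 CPM at the median library. In the smaller sets *Gnmt* thus passed the filter only through GOAT KO 1139, 1140 and 1141 (0.96, 0.73 and 0.67 CPM). That favours a call as higher, so these calls are no support for a difference. *Mov10l1* lost its call without GOAT KO 1140, GOAT KO 1141, WT 1118, WT 1119 or WT 1120 (0.51 to 0.68), and *Khdc3* without GOAT KO 1146 (0.50) or WT 1118 (0.40). *Gadd45a* lost its unadjusted p below 0.05 without GOAT KO 1139, GOAT KO 1141, WT 1118 or WT 1119 (-0.32 to -0.25), and *Mael* with 6 libraries or without GOAT KO 1140, GOAT KO 1141, WT 1118, WT 1119 or WT 1120 (0.25 to 0.40). *Neil2* gained it with 6 libraries and without GOAT KO 1140 or WT 1120 (0.31 to 0.37), *Zbtb38* without WT 1120 (-0.19) and *Slc25a31* without GOAT KO 1146 (0.36). The 4 relations to marker sums became 2 with 6 libraries, copies added or not, and between 0 and 4 without single libraries (0 in 5 of 8 such sets). *Dppa3* against granulosa markers turned to -0.050 with copies added and 6 libraries. By longest transcript 4 of the 10 genes kept their place in the order of levels. The cause of these shifts was not tested. At 133 to 413 counts per library *Dnmt3l*, *Dnmt3b* and *Dppa3* carry the widest counting error, and splice choices rest on few reads.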

Other observations

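The genes whose log2 CPM ran most closely with each of the 10 over the 8 libraries, out of 16599 compared, are given as a description, since among so many genes some correlate highly over 8 points. *Uhrf1* ran with *Mrpl45* (r = 0.993), *Rrp1* and *Cog2*, and *Tet1* with *Krt12* (0.995), *Pik3r1* and *Spata1*. *Tet2* ran with *Ncoa2* (0.986), *Gm18588* and *Lgr5*, and *Tet3* with *Nfix* (0.969), *Spred2* and *Ywhae*. *Dnmt1* ran with *Fbxw16* (0.967), *Gyg* and *Nr2e1*, *Dnmt3a* with *Col5a3* (0.968), *Dgat2* and *Pla2g16*, *Dnmt3b* with *Sulf1* (0.966), *Echdc1* and *Otub2*, and *Dnmt3l* with *Pms2* (0.962), *Tarbp2* and *Fgfrl1*. *Zfp57* ran with *Ifnar2* (0.955), *Spaca6* and *AU015836*, and *Dppa3* with *Afg3l1* (0.979), *Gm11478* and *9430016H08Rik*.

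Among the marker lists the genes with most reads were *Gdf9* and *Zp2* (mean in WT 305 and 250.3 CPM), *Kit* and *Taf4b* (90.9 and 58.2), *Top2a* and *Mki67* (486 and 419.7), *Gja1* and *Inha* (3462 and 3435), *Hsd3b1* and *Col3a1* (1904 and 1184), *Csf1r* after *Lyz2* (15.7 and 59.0), *Upk3b* and *Krt8* (53.2 and 29.9) and *Fabp4* and *Cfd* (7.27 and 1.94), the last pair through GOAT KO 1139 (4793 and 2710 counts), *Plin1* being higher in WT (9.19). *Lyz2* was called lower in GOAT KO (log2 fold change -0.52, edgeR adjusted p = 0.983), the only call among 9 leukocyte markers tested (7 lower and 2 higher). *Sohlh1*, a factor of oocytes in small follicles, was called higher (0.87, adjusted p = 0.983), with groups that overlapped. It was the only call among 10 such markers tested (7 higher and 3 lower), and 1.67% of all genes were called. The 6 fat markers tested were called higher with GOAT KO 1139 in the set and 1 of them, *Plin1*, with 6 libraries.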
